A study of Mus musculus with 2 samples.

Results

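Open chromatin far from genes was described in mouse erythroblasts, from which red blood cells mature. A far intergenic site was an interval open in both replicates whose strongest summit lay outside every GENCODE M21 gene, over 1 kb from any annotated start site and over 50 kb from the nearest protein-coding start. Of 16180 intervals shared by the replicates on chromosomes 1 to 19 and X, 392 met this rule. Of these, 19 lay in sequence with a near-identical copy elsewhere and are described apart, which left 373 single-copy sites.

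The data came from ATAC-seq, in which a transposase cuts and tags accessible DNA. The series held 1 group, primary erythroblasts of adult male C57BL/6J mice aged 5 to 6 weeks, with 2 biological replicates of 50000 cells and no allele or treatment stated. Both replicates carry the same donor identifier in the labels, so how far they are independent is not given, and the tissue of origin is not stated. With 1 group there was no contrast between conditions.

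Distal open sites often mark enhancers, which bind transcription factors and act on promoters over long distances. In erythroid cells many of them bind GATA1 together with TAL1 and its partners, at a GATA motif that lies a short way behind part of an E-box. CTCF binds a longer motif at chromatin loop anchors, and NF-E2 binds an extended AP-1 motif at erythroid enhancers such as those of the globin genes.

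The strict peak list of replicate 1 held 17766 intervals and that of replicate 2 held 18826, with no read counts, so depth is unknown. All 12 erythroid marker genes had an open promoter in both replicates, among them Gata1, Klf1 and Epor. Open promoters were found for 0 of 4 B cell, 0 of 4 T cell, 0 of 4 granulocyte and monocyte, 0 of 4 stem and progenitor and 0 of 3 hepatocyte markers. The megakaryocyte list had 1 of 4, Itga2b. Of all protein-coding genes, 9068 of 21728 (41.7%) had an open promoter. The erythroid markers thus went with the label, and each other list is too short to exclude its cell type. The values per site are the enrichment of its strongest summit over background, as the authors' peak caller computed it, and they were compared within a list.

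The sequences of 7 sites show the motifs that the sections on motifs turn on. Each is 151 bases centred on the replicate 1 summit, plus strand, from the GRCm38.p6 genome of RefSeq, which has mm10 coordinates. Capitals mark the motif on whichever strand it lies. The composites, the CTCF core sites and the NF-E2 site are those of highest rank that hold the motif, and the site farthest from a gene has no GATA, composite, CTCF or NF-E2 motif in its window.
Composite near Tbc1d2b, chr9:90326649-90326799: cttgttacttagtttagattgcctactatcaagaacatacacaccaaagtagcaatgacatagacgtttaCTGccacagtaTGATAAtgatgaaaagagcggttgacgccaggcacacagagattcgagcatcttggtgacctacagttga
Composite near Sdc1, chr12:8841033-8841183: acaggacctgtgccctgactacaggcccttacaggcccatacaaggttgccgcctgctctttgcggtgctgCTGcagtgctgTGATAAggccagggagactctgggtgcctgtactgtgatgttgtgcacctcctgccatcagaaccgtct
Composite near Pdp1, chr4:11900104-11900254: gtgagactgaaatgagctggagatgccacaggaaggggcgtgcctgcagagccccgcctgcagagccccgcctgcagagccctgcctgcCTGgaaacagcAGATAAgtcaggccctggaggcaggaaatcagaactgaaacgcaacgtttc
CTCF core near Mboat1, chr13:30085106-30085256: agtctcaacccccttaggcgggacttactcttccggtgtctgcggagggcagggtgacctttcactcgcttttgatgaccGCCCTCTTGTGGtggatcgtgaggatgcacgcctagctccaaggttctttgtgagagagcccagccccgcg
CTCF core near Rab39b, chrX:75674341-75674491: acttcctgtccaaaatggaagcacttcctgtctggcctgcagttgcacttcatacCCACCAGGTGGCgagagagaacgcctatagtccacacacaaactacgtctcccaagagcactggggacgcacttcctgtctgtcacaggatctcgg
NF-E2 motif near Gm13691, chr2:84059353-84059503: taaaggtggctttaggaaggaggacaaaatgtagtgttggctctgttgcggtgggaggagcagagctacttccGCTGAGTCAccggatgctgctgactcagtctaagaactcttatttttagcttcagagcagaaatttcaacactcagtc
Site farthest from a gene, on the side of Cdh20, chr1:102628202-102628352: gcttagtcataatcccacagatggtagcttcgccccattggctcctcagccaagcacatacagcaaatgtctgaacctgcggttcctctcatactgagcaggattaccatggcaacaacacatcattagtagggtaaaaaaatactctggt

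The letters of the composites were the CTG of an E-box followed by the GATA motif. The composite was centred 3 bp from the summit near Tbc1d2b and 4 bp from it near Sdc1, and 22 bp from it near Pdp1. The site near Tbc1d2b had enrichments of 17.8 and 16.2 in replicates 1 and 2, that near Sdc1 14.98 and 13.8, and that near Pdp1 14.1 and 14.4. The CTCF core sites had 13.2 and 12.6 near Mboat1, and 12.7 and 12.0 near Rab39b. These examples were picked by rank from 92 composite sites and 32 CTCF core sites, so their order does not compare the motifs.

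Far intergenic sites were spread thinly over a large part of the genome. Sequence that met the distance rule came to 857 Mb, 33.5% of the genome, and held 0.435 single-copy sites per Mb. Intergenic sequence 1 to 50 kb from a protein-coding start came to 452.0 Mb and held 4.74 per Mb. Over the whole genome there were 6.32 shared sites per Mb. Distances of the 392 sites from the nearest protein-coding start ran from 50.1 to 2140 kb, with a median of 83.8 kb and quartiles of 63.7 and 146 kb. Of the single-copy sites, 223 lay upstream of that start and 150 downstream. Gene bodies, which lie downstream of a start, are left out by the rule. The split of the eligible sequence was not counted, so the counts show no preference for a side.

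The density fell with distance. It was 1.34 sites per Mb at 50 to 100 kb (234 sites), 0.449 at 100 to 200 kb (88 sites), 0.153 at 200 to 500 kb (41 sites) and 0.0457 beyond 500 kb (10 sites). Chromosomes differed as well. Chromosome 13 had the highest density, 0.988 per Mb from 39 single-copy sites, followed by chromosome 6 with 0.677 and chromosome 5 with 0.643. Of the 39 sites on chromosome 13, 10 were nearest to Map3k1 and 6 to Pik3r1, so its density rests in part on 2 genes. Chromosome 8 had the lowest, 0.0929 per Mb from 4 sites, and chromosome X had 0.231 from 17 sites.

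The 2 members nearest to the limit lay 50130 bp from Ddx3x, with enrichments of 13.3 and 14.5, and 50167 bp from Add3, with 6.43 and 7.81. The 2 sites just outside lay 49942 bp from Ahctf1, with 6.31 and 7.35, and 49939 bp from Grhl3, with 10.9 and 10.8.

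The rule requires an interval in both replicates, and the summits of the 2 intervals mostly lay close together. Of the 392, 391 overlapped the conservative list made from both replicates, as did 16174 of the 16180 shared sites. All 392 overlapped the thresholded, replicated and pseudoreplicated lists made from both replicates. These lists draw on the same libraries, so they are no independent check. The summits of the replicates lay a median of 7 bp apart at single-copy sites, and 361 of 373 (96.8%) lay within 50 bp. Of the 392, 391 were far intergenic by the replicate 2 summit too, and 1 was intronic. Enrichment ranked the 373 sites alike in both lists, with a Spearman rho of 0.902 across sites, against 0.929 for the nearer intergenic sites and 0.953 for all shared sites. Sites of 1 library share its depth and processing, so rho is a description.

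The largest disagreements came from neighbouring summits. Near Lacc1 on chromosome 14, an interval with 2.88 in replicate 1 was set against 9.25 in replicate 2, where 1 wider interval of 648 bp had its strongest summit 384 bp away. Near Hlx on chromosome 1, an interval with 5.15 in replicate 1 was set against 12.3 in replicate 2, whose summit lay 579 bp away. In all, 8 members shared 4 such replicate 2 intervals, so the 392 sites correspond to 388 distinct intervals of replicate 2. These pairs were chosen after their values were seen.

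**Figure D1:**
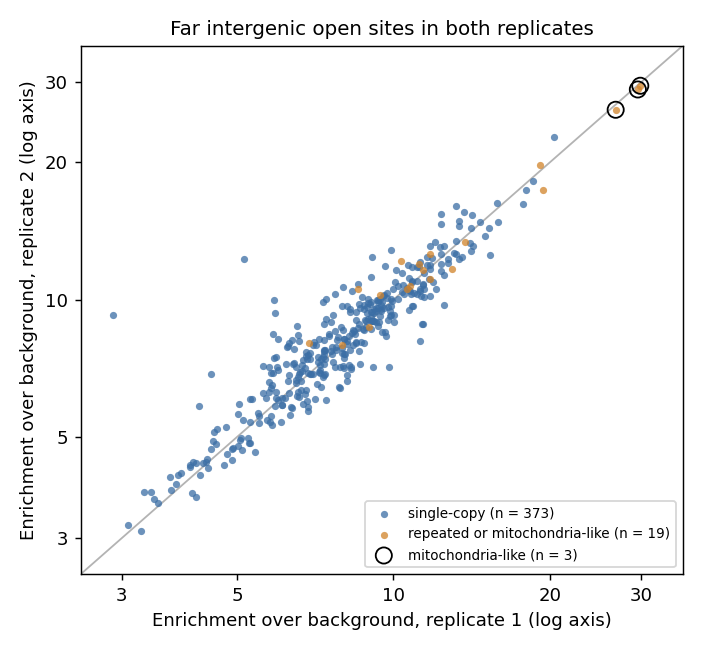
Enrichment over background of the 392 far intergenic sites in replicate 1 (x axis) and replicate 2 (y axis), both on log axes, with single-copy sites in blue and repeated sites in orange. Circles mark the 3 mitochondria-like sites, which stand at the top in both replicates, and the grey line marks equal values.

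Single-copy far intergenic sites were of middling strength among open sites, and their median was above those of nearer intergenic and intronic sites. Their median enrichment was 7.98 in replicate 1 and 8.20 in replicate 2, against 7.29 and 7.44 at single-copy intergenic sites within 50 kb. Intronic sites had medians of 6.998 and 7.115, and promoters 9.09 and 9.28. In its own list the median far site stood at the 52.0 percentile in replicate 1 and the 55.1 percentile in replicate 2. The nearer intergenic sites stood at the 43.0 and 46.1 percentiles. Enrichment at single far sites ran from 2.88 to 20.3 in replicate 1 and from 3.11 to 22.8 in replicate 2.

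More far sites than nearer intergenic sites were among the strongest of the list, and fewer among the weakest, as shares of their class. In replicate 1, 68 of 373 far sites (18.2%, 95% Wilson interval 14.6 to 22.5) were in the strongest 20% of the list, against 223 of 2142 nearer sites (10.4%, 9.19 to 11.8) and 21.9% of all shared sites. In replicate 2 they were 62 of 373 (16.6%, 13.2 to 20.7), against 249 of 2142 (11.6%, 10.3 to 13.1) and 23.4% of all shared sites. In both replicates the share of far sites was above that of nearer sites, with intervals that did not overlap. It was below that of all shared sites, which lay inside the interval of far sites in replicate 1 and above it in replicate 2. In the weakest 20% of the list there were 54 far sites (14.5%) in replicate 1 and 48 (12.9%) in replicate 2, against 465 (21.7%) and 408 (19.05%) of the nearer sites. The intervals cover counting error only, and sites are not replicates of a condition.

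**Figure D2:**
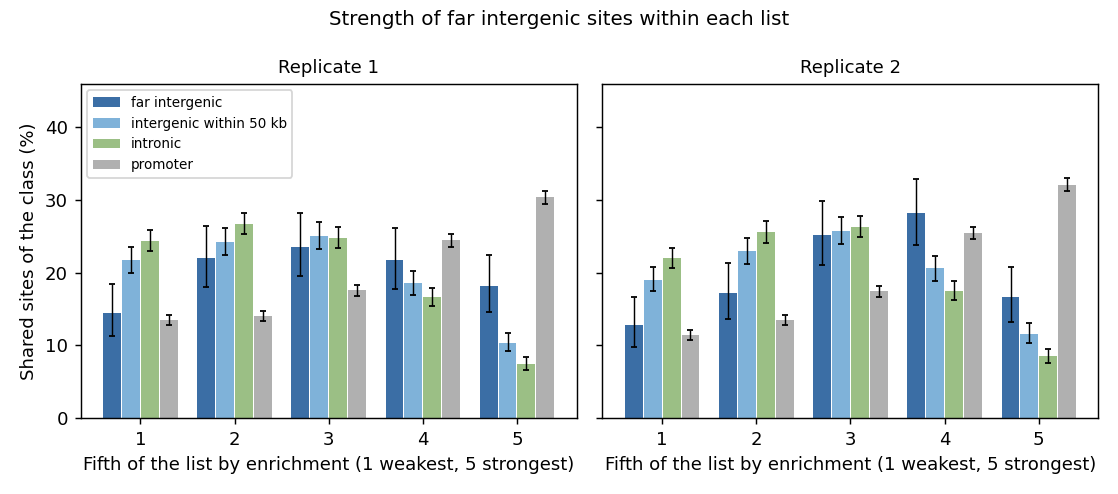
Share of the shared sites of each class (y axis, percent) in each part of the list of replicate 1 (left) and replicate 2 (right), cut into 5 equal parts by enrichment from weakest to strongest (x axis). Bars are single-copy far intergenic, single-copy nearer intergenic, intronic and promoter sites, with 95% Wilson intervals, and in the strongest part far sites (18.2% and 16.6%) stand above nearer sites (10.4% and 11.6%) in both replicates.

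In width and base composition the far sites were like other distal sites and unlike promoters. Their median width was 547 bp in replicate 1, against 524 bp at nearer intergenic sites and 816 bp at promoters. The median GC content around their summits was 51.0%, against 53.0% at nearer sites and 64.2% at promoters. Windows 1 kb to either side of the far sites had 45.0%, and windows on a regular grid through far intergenic sequence had 39.1%. The sites were therefore richer in GC than the sequence they lie in. Bases soft-masked as repeats made up 50% or more of the window at 17 of 373 single-copy sites (4.56%), against 20.03% of flanking windows and 34.8% of grid windows.

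GATA motifs were present at most far sites. The search covered both strands of the window of 151 bases around the replicate 1 summit. WGATAR, where W is A or T and R is A or G, was found at 226 of 373 single-copy sites (60.6%, Wilson interval 55.5 to 65.4), where 27.0% of all shared sites have it. It was found at 41.2% of nearer intergenic sites (882 of 2142, 39.1 to 43.3), 52.8% of intronic sites and 12.9% of promoters. In sequence without the summit the share was 27.4% of 694 flanking windows and 33.5% of 17186 grid windows. Of the 373 sites, 141 held 1 GATA motif, 76 held 2 and 9 held 3 or more.

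The motifs were concentrated at the summit. Within 50 bp of the summits of the 373 sites there were 261 GATA motifs by the summits of replicate 1 and 256 by those of replicate 2, a density of 6.997 and 6.863 per kb. At 250 to 500 bp from the summit the density was 2.33 and 2.40 per kb. The CTCF core fell off in the same way, with 30 motifs within 50 bp in each replicate (0.804 per kb) and 0.107 per kb at 250 to 500 bp.

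**Figure D3:**
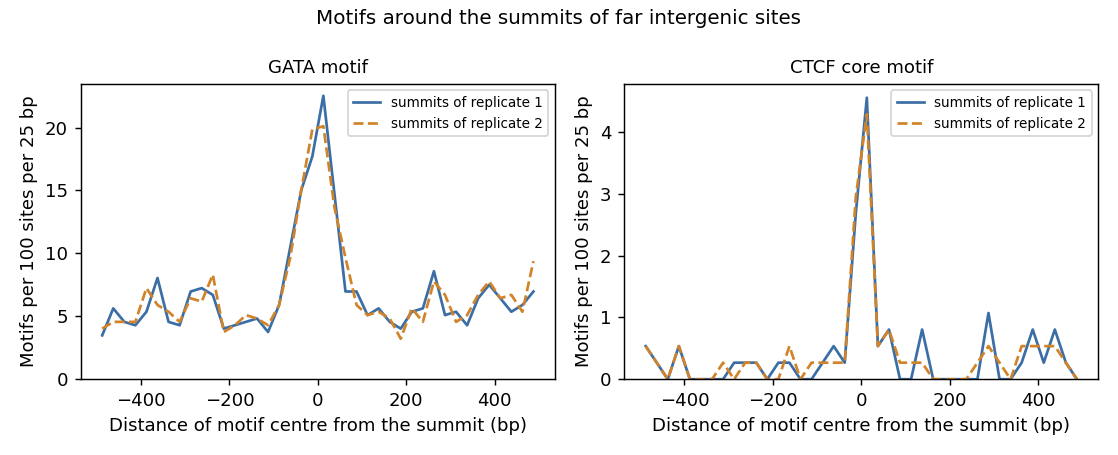
Number of GATA motifs (left) and CTCF core motifs (right) per 100 sites in steps of 25 bp (y axis) by distance from the summit (x axis, bp) at the 373 single-copy far intergenic sites, with a line for the summits of each replicate. GATA motifs peak at the summit, at 6.997 and 6.863 per kb within 50 bp, and level off to 2.33 and 2.40 per kb beyond 250 bp.

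The GATA and E-box composite, CTG followed after 6 to 10 bases by WGATAR, lay at 92 far sites (24.7%, 20.6 to 29.3), where 10.2% of all shared sites have it. The share was 16.4% at nearer intergenic sites (352 of 2142, 14.9 to 18.1), 23.0% at intronic sites and 3.38% at promoters. Flanking windows held it in 2.74% and grid windows in 2.97%. Every composite contains a GATA motif, so these sites are a subset of the 226. The share was higher at far than at nearer intergenic sites, and the interval at far sites held the value at intronic sites.

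Far sites held fewer CTCF core motifs than nearer ones. The CTCF core was searched as CCA, any 2 bases, AG, any 2 bases and GGC. It was found at 32 of 373 far sites (8.58%, 6.14 to 11.9), where 8.56% of all shared sites have it. Nearer intergenic sites held it in 20.2% (432 of 2142, 18.5 to 21.9), intronic sites in 13.1% and promoters in 3.97%. Grid windows held it in 0.425%. Of the 32 sites, 27 had no GATA motif and 5 had both.

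NF-E2 and AP-1 motifs were also found more often at far sites than across all shared sites. GCTGAGTCA, the NF-E2 motif, lay at 19 far sites (5.09%, 3.28 to 7.82), where 1.77% of all shared sites have it, against 3.03% of nearer intergenic sites (2.39 to 3.85) and 0.105% of grid windows. It shared a site with a GATA motif at 11 of the 19. TGANTCA, the AP-1 motif that the NF-E2 motif contains, lay at 52 far sites (13.9%, 10.8 to 17.8), where 5.7% of all shared sites have it, against 9.10% of nearer sites (7.96 to 10.4). The intervals of far and nearer sites overlapped for NF-E2 and not for AP-1. Intronic sites held the NF-E2 motif in 4.08% (3.46 to 4.80) and the AP-1 motif in 10.1% (9.16 to 11.2). Both of these intervals overlapped those of far sites.

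The other motifs set the far sites apart from promoters more than from nearer intergenic sites. CCNCACCC, bound by KLF1, lay at 47 far sites (12.6%), where 12.1% of all shared sites have it, against 12.4% of nearer sites. The E-box CAGATG or CAGCTG lay at 114 (30.6%), where 19.2% of all shared sites have it, against 25.7% of nearer sites, and their intervals overlapped. TGTGGT, the RUNX motif, lay at 43 (11.5%), where 9.36% of all shared sites have it, against 13.0% of nearer sites. CCGGAAG, an ETS motif common at promoters, lay at 3 (0.804%), where 9.74% of all shared sites have it, against 2.29% of nearer sites and 15.2% of promoters. GAGGAAG, the PU.1 motif, lay at 14 (3.75%), where 6.01% of all shared sites have it, against 5.28% of nearer sites. GGGCGG, the GC box bound by SP factors, lay at 43 (11.5%), where 37.8% of all shared sites have it, against 14.2% of nearer sites and 54.9% of promoters. The NFI palindrome lay at 0 of 373, which allows a share of up to 1.02%, where 0.0247% of all shared sites have it. None of GATA, CTCF core, NF-E2, AP-1 or CACCC was found at 83 far sites (22.3%), against 32.3% of nearer sites. A match is a description of letters, and a window without one says nothing about the factor.

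**Figure D4:**
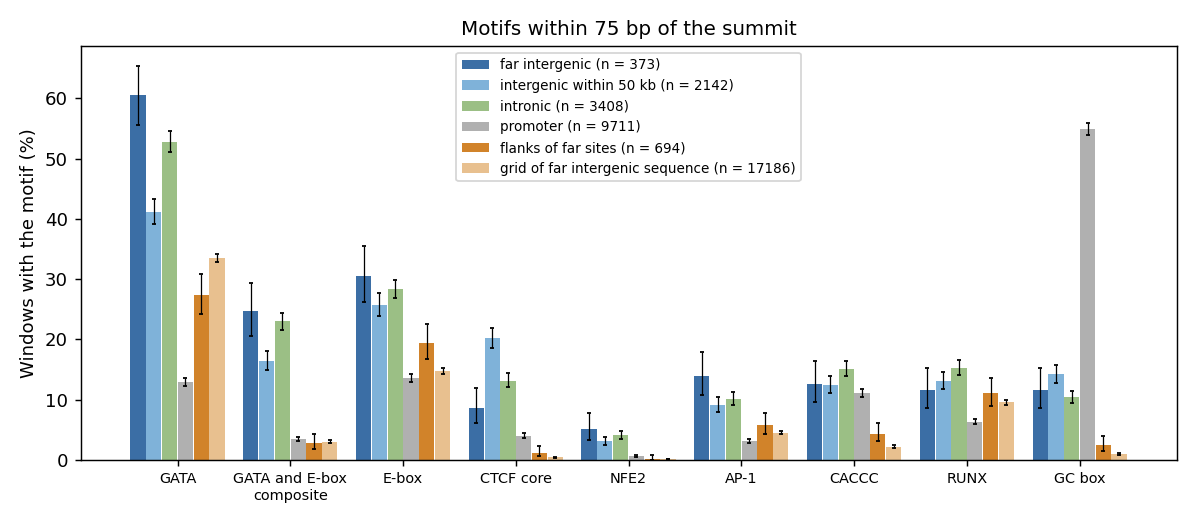
Share of sites with each motif within 75 bp of the summit (y axis, percent of windows, by motif on the x axis) at single-copy far intergenic sites, nearer intergenic sites, intronic sites, promoters, flanks of far sites and grid windows, with 95% Wilson intervals. GATA and its composite are found at 60.6% and 24.7% of far sites against 41.2% and 16.4% of nearer sites, and the CTCF core at 8.58% against 20.2%.

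The balance of GATA and CTCF motifs changed with distance from genes. GATA motifs lay at 40.7% of single-copy sites 1 to 10 kb from a protein-coding start, 39.9% at 10 to 25 kb and 45.4% at 25 to 50 kb. Among far sites the share was 53.8% at 50 to 100 kb (126 of 234, 47.4 to 60.1), 71.6% at 100 to 200 kb (63 of 88, 61.4 to 79.96) and 75.6% at 200 to 500 kb (31 of 41, 60.7 to 86.2). Beyond 500 kb 6 of 10 sites held one (31.3 to 83.2). The composite share was 18.8% at 50 to 100 kb, 31.8% at 100 to 200 kb, and 41.5% at 200 to 500 kb, with 3 of 10 sites beyond 500 kb.

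CTCF core motifs ran the other way. They lay at 19.4% of sites at 1 to 10 kb, 23.6% at 10 to 25 kb, 15.03% at 25 to 50 kb, 11.5% at 50 to 100 kb (27 sites) and 5.68% at 100 to 200 kb (5 sites). At 200 to 500 kb there were 0 of 41, which allows up to 8.57%, and beyond 500 kb 0 of 10, which allows up to 27.8%. Base composition moved with distance as well. Median GC content at the sites was 52.3% at 50 to 100 kb, 50.3% at 100 to 200 kb, 49.7% at 200 to 500 kb and 46.03% beyond 500 kb. Over the same steps the share of grid windows with a GATA motif was 29.7%, 32.6%, 33.8% and 37.0%. The share of grid windows with a CTCF core fell too, at 0.943%, 0.406%, 0.243% and 0.250%. The part of base composition in the change was not tested.

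**Figure D5:**
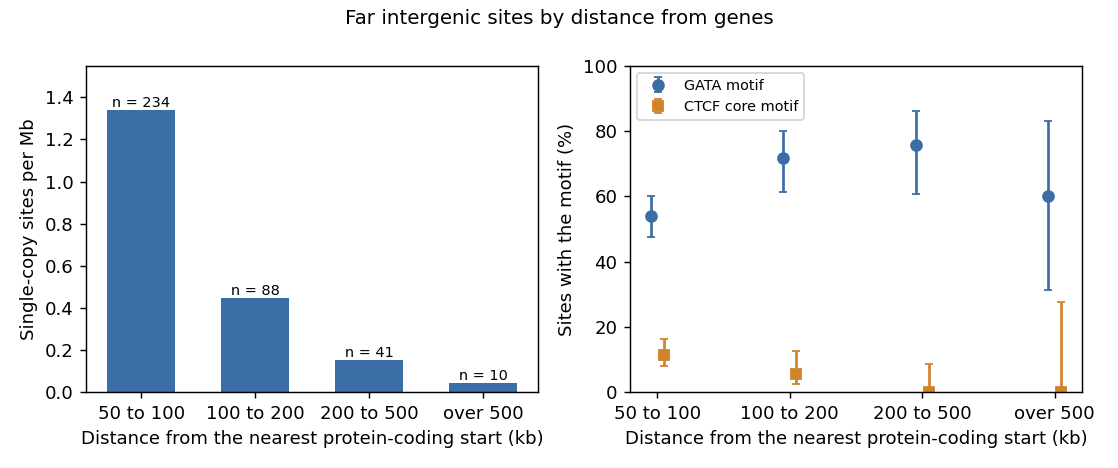
Left, single-copy far intergenic sites per Mb of sequence that meets the rule, by distance from the nearest protein-coding start (x axis, kb), with the number of sites above each bar. Right, percent of those sites with a GATA motif (blue) or a CTCF core (orange) and 95% Wilson intervals: GATA is at 53.8% at 50 to 100 kb and 75.6% at 200 to 500 kb, and the CTCF core at 11.5% and 0%.

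The median enrichment of composite sites was above that of sites with a GATA motif alone in both lists, a difference that was not tested. The 92 composite sites had median enrichments of 8.61 and 8.85 in replicates 1 and 2, against 7.47 and 8.08 at the 134 sites with a GATA motif and no composite. The 226 sites with any GATA motif had 8.13 and 8.44, against 7.75 and 8.07 at the 147 without. The 32 CTCF core sites had 7.65 and 7.46, and the 19 NF-E2 sites had 8.78 and 9.59. Cut into 3 equal parts from weakest to strongest, the sites held a GATA motif in 62.9%, 56.5% and 62.4%, and a composite in 20.97%, 24.2% and 28.8%. The Wilson interval of the composite share was 14.7 to 29.0 in the weakest part and 21.6 to 37.3 in the strongest part, and the intervals overlapped. Composite sites lay at a median of 114 kb from a protein-coding start, against 81.1 kb at sites with a GATA motif and no composite. This difference was not tested.

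Of the 10 single-copy sites of highest rank, 4 held a GATA motif, as did 226 of all 373. The site of highest rank, at chr2:3964446-3964679 and 53.2 kb from Frmd4a, had enrichments of 20.3 and 22.8. The next, at chr4:28176762-28177105 and 636 kb from the ephrin receptor gene Epha7, had 18.6 and 18.2. Neither held a GATA, CTCF core, NF-E2, AP-1 or CACCC motif in its window. The third by rank, at chr17:17004803-17005202 and 59.1 kb from Zfp960, had 17.97 and 17.4, and lies within 1 kb of a RefSeq transcript start, that of Gm51425.

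The composite site near Tbc1d2b, whose sequence is given above, came next with 17.8 and 16.2. It was followed by chr5:109866309-109867003 near Gm15446 with 15.8 and 16.3, within 1 kb of the RefSeq start of AB010352. A site at chr1:56782238-56782447, 145 kb from Hsfy2, had 15.9 and 14.8 and held 1 GATA motif. The sites near Zfp960 and Gm15446 thus lie at starts that the GENCODE M21 rule did not use.

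The remaining 4 of the 10 strongest were near Robo2, Gm13691, Maged1 and Wdr26. The site near the axon guidance receptor gene Robo2, at chr16:73821339-73822260, had 15.3 and 14.4 and held 2 GATA motifs. The NF-E2 site near Gm13691, shown above, had 14.7 and 14.8. The site near Maged1, at chrX:94486465-94486728, had 14.1 and 15.4 and held NF-E2 and GATA motifs. The site near Wdr26, at chr1:181272660-181273249, had 13.7 and 15.5 and 11 CpG in its window. Of these 10, 5 held none of the 5 motifs GATA, CTCF core, NF-E2, AP-1 and CACCC, as did 83 of all 373. From any other shared site, 8 lay over 50 kb away, and those near Zfp960, Tbc1d2b and Gm15446 lay 53.5, 55.9 and 56.9 kb away. The median over the 373 sites was 16.8 kb, and their share beyond 50 kb was not counted.

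The 3 sites farthest from genes lay over 1 Mb from any protein-coding start. The farthest, at chr1:102628172-102628384, lay 2140 kb from Cdh20, a cadherin gene, and had enrichments of 12.4 and 12.0. The second farthest was mitochondria-like and is described below. The third, at chr10:16538448-16538706, lay 1185 kb from Cited2, a transcriptional coregulator gene, had 8.25 and 9.39 and held 1 GATA motif. All of these distances run to protein-coding starts.

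Part of the far sites lay near another. Of the 373, 171 (45.8%, 40.9 to 50.9) lay within 20 kb of another, and 195 (52.3%) within 20 kb of any shared site. These shares were not counted for other classes, so they are not shown to be particular to far sites. The median distance to the next far site was 29.1 kb and to the next shared site 16.8 kb. At the other end, 61 sites (16.4%) lay over 100 kb from any shared site. Joined at 20 kb, the sites formed 202 single sites, 42 pairs and 24 clusters of 3 or more. These 24 held 87 sites.

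The largest cluster lay upstream of Map3k1, which encodes a kinase of the MAP kinase cascade. Its 7 sites ran over chr13:111894998-111958101, 86.0 to 149 kb from the start of Map3k1, with 5 sites holding a GATA motif and 2 a composite. Their enrichments ran from 4.22 to 9.43 in replicate 1 and from 4.86 to 10.03 in replicate 2. A further 3 sites, all with a GATA motif, lay at 216 to 238 kb. No site of the region was among the 10 strongest of the class.

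The sites had 231 nearest protein-coding genes, 1.06% of the 21728 protein-coding symbols. Of these genes 152 were nearest to 1 site and 79 to more. A gene nearest to a site is not shown to be its target. Of the 231, 125 had a promoter open in both replicates (54.1%, 47.7 to 60.4), against 41.7% of all protein-coding genes.

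The 10 genes nearest to most sites held 56 of them, of which 43 had a GATA motif and 1 a CTCF core. Of all 373 sites, 226 (60.6%) had a GATA motif and 32 (8.58%) a CTCF core. Sites of 1 gene are often close neighbours, and the difference was not tested. Map3k1 had 10 sites, 8 with a GATA motif and 3 with a composite. Pik3r1, which encodes a regulatory subunit of phosphoinositide 3-kinase, had 6 sites 80.4 to 182 kb downstream of its start, 4 with a GATA motif, and enrichments of 4.06 to 10.8 in replicate 1 and 4.30 to 11.1 in replicate 2. Both genes lie on chromosome 13, the chromosome of highest density.

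The other 8 genes had 5 sites each. Hlx, a homeobox gene, had its 5 at 66.2 to 86.2 kb, 4 of them with a GATA motif. Itga4, which encodes an integrin subunit that erythroblasts use to attach to macrophages, had 4 with a GATA motif over 53.6 to 156 kb. P2ry1, an ADP receptor gene, had 4 with a GATA motif, and Gm47985 also had 4. Parp11, an ADP-ribosyltransferase gene, had 3 with a GATA motif and the 1 CTCF core of the group. Plcl2, a phospholipase C-like gene, had 5 of 5 with a GATA motif and no composite, and Bcor, which encodes the BCL6 corepressor, had 3. The promoters of Plcl2 and Bcor were not open in both replicates, while those of the remaining 8 of 10 were. Among all 231 nearest genes 54.1% had an open promoter, and among all protein-coding genes 41.7%.

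Of a list of 30 erythroid genes, 4 were nearest to a far site and the rest were not. Among all protein-coding genes 1.06% were, and the difference was not tested. Of the 4, Runx1, Klf3 and Lmo2 were each nearest to several far sites, and each had an open promoter. Of 16 stem, lymphoid and myeloid regulators, 0 were nearest to a far site, where 1.06% of all protein-coding genes were, so a list of this length is too short for the count to say anything about it. The lists were chosen with results of these data known.

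Runx1, a transcription factor gene of blood development, had 5 sites on chromosome 16, 57.8 to 371 kb upstream. The site nearest to the gene had enrichments of 9.47 and 9.55 and 2 GATA motifs, and the one farthest from it had 8.81 and 9.04 and a composite. Between them lay sites with 5.51 and 5.56, with 3.81 and 3.95 and with 7.31 and 6.77, of which the weakest had no GATA motif. In all, 4 of the 5 held a GATA motif and 3 a composite.

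Klf3, which encodes a repressor of the Krüppel-like family, had 4 sites 212 to 235 kb upstream. The outermost had enrichments of 11.7 and 11.1 and the others lay between 6.54 and 6.77 in replicate 1 and between 6.20 and 6.75 in replicate 2. Each of the 4 held a GATA motif and the 2 nearest to the gene held a composite.

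Lmo2, which encodes the bridging protein of the GATA1 and TAL1 complex, had 3 sites at 61.0 to 64.0 kb. They had enrichments of 6.99 and 6.88, of 3.27 and 3.11, and of 4.17 and 3.70, and the first 2 held 1 GATA motif each. All were below the median of the class.

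Sites in copied sequence were set apart because reads from near-identical copies cannot be placed with certainty. Of the 392 sites, 19 (4.85%, 3.12 to 7.45) had a further copy at 95% identity or more over at least 80% of the window. Among nearer intergenic sites 42 of 2187 did (1.92%, 1.42 to 2.59). At 90% identity or more the counts were 26 (6.63%) and 52 (2.38%), so some sites called single-copy have a less similar copy. For 14 of the 19, all copies at 95% identity or more lay on the same chromosome, and 4 of the 19 were on X. The median enrichment of the 19 was 11.4 and 11.7, against 7.98 and 8.20 at the single-copy sites. How the authors treated reads with several matches is not given, and its part in this difference was not tested.

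The 3 strongest of all far sites matched the mitochondrial genome. The site at chr6:9889886-9890220, 940.4 kb from Nxph1, had enrichments of 29.9 and 29.4, and 310 of its 335 bp matched the mitochondrial control region at 95.5% identity. The site at chr12:97061379-97061852, 1155 kb from Galc, had 26.8 and 26.1, and 365 of its 474 bp matched the same region at 99.7%. The site at chr5:60042655-60043140, 1766 kb from G6pd2, had 29.5 and 28.9, and 383 of its 486 bp matched the part with ND2 and transfer RNA genes at 97.9%. All 3 ranked above every single-copy far site in both replicates. Copies of mitochondrial DNA in the nucleus cannot be told apart here from reads of mitochondrial DNA itself, which is abundant and open in ATAC-seq.

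A second annotation, which the rule did not use, placed some of the sites at genes. By RefSeq, 30 of 373 (8.04%) lay within 1 kb of a transcript start, of which 29 lay at a long noncoding RNA and 2 at a coding one (a site can lie at both), and 69 more (18.5%) lay inside a RefSeq gene. The other 274 (73.5%) lay outside RefSeq genes and starts. Among the sites, 3 overlapped a RefSeq functional element annotated as an enhancer, 2 of them near Irf2bpl on chromosome 12, with 6.37 and 8.16 and with 7.78 and 8.16 from 1 shared interval of replicate 2, and 1 near Phc1 on chromosome 6, with 5.06 and 4.92.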

How the data were processed

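ATAC-seq peak lists of 2 erythroblast replicates were used. Per the labels, coordinates are mm10, and they are printed counting from 1. The deposited lists give each summit's enrichment, a ratio (fold over background) computed by the authors' peak caller, and its −log10 p, which was read but not reported. The sources used here do not name the aligner, the caller, their settings or any scaling between lists, so enrichment was compared within a list. The lists hold no read counts: depth is unknown.

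Distinct intervals of the replicate 1 list thresholded on the irreproducible discovery rate were kept where they overlapped a replicate 2 interval by at least 1 bp. The summit of highest enrichment gave the place, by GENCODE M21. Motifs were sought as given letters in the GRCm38.p6 sequence. Copies were sought with blastn 2.17.0 in the window within 150 bp of the summit, with a mitochondrial match being at least 100 bp at 80% identity or more. Grid windows stood every 50 kb. Python 3.11.15, numpy 2.4.6, pandas 2.3.3, scipy 1.17.1 and matplotlib 3.10.9 were used, and the classification and motif counts were tested on simulated data. Intervals of shares are 95% Wilson intervals for counting error alone. No test was made, since there is 1 group and sites are not replicates. A promoter was called open where both replicates had a peak at most 1 kb from a start of the gene.

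Named sites were the 10 single-copy sites of highest mean rank, the 3 farthest, the mitochondria-like sites and those at the 50 kb limit. Named genes were the 10 nearest to most sites and the list genes nearest to a site. The result of 1 list gene is not reported here. Sequences were of the highest-ranked sites with each motif, none from chromosome 18. Further names were picked once their values were known. The members, motifs and lists were chosen with earlier results of these data known. Alternatives changed the distance limit, the annotation, the lists, the overlap, the motif window, the copy threshold and the replicates.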

Additional observations from a re-analysis of the deposited data

How the results depend on the processing

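No paired analysis was possible because the series has 1 group. Of 75 alternative values, 22 moved and 53 did not, where a number of sites moved when it changed by over 1.5 times, a share when it left its Wilson interval, and the median enrichment when it changed by over 1 SD of the replicates. The number of sites was 769 at a limit of 25 kb, 150 at 100 kb, 98 where the 50 kb ran to the start of any gene, and 914 with the less strict lists. The number was 492 without replicate 1 and 450 without replicate 2. The GATA share was 53.0% at 25 kb, 71.9% at 100 kb, 71.0% for any gene, 46.8% with the less strict lists and 53.6% in a window of 50 bp to each side. The composite share was 34.5% at 100 kb, 31.2% for any gene and 18.7% with the less strict lists. The CTCF core share was 3.597%, 4.301% and 14.9% under the same 3 settings. The median enrichment was 8.14 at 100 kb, 8.59 for any gene and 5.77 with the less strict lists. With the intervals of replicate 2 it was 8.18 in that list, where the main setting had 8.20. It was 7.64 without replicate 2, and 7.68 in the list of replicate 2 without replicate 1. The 8.18 and 7.68 were called moved against the replicate 1 median of 7.98, so those calls set 1 list against another. The share within 20 kb of another site was 39.8% for any gene. The share in copied sequence stayed within its interval under every setting run. The causes of these shifts were not tested.

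Depth is unknown, so no limit of detection can be given for weaker far sites. The series has 2 replicates with 1 donor identifier, and no value here shows the spread between animals.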

Other observations

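A small group of far sites was rich in CpG, the dinucleotide that marks many promoters. Of the 373 single-copy sites, 19 (5.09%) had 10 or more CpG in the window of 151 bases, where 42.9% of all shared sites do, against 8.40% of nearer intergenic sites and 67.8% of promoters. None of the 19 held a GATA motif, which allows a share of up to 16.8%, where 27.0% of all shared sites and 12.9% of promoters have it. Their median GC content was 68.2%, against 51.0% at the other far sites, and its part in this count was not tested. Their median enrichment was 8.39 in replicate 1 and 8.52 in replicate 2, against 7.97 and 8.18 at the other far sites. By RefSeq, 3 of the 19 lay within 1 kb of a transcript start and 13 lay outside genes and starts. The site with most, 24 CpG, lay at chr6:127330219-127330737 near Parp11 and had enrichments of 8.05 and 7.45.

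A cluster near Chd2, which encodes a chromatin remodeller, held 2 such sites and was picked after its values were seen. Its 3 sites on chromosome 7 lay 53.5, 65.2 and 76.8 kb from Chd2 and had 8, 18 and 23 CpG. They had enrichments of 8.57 and 9.79, of 12.4 and 12.6, and of 8.79 and 8.03 in replicates 1 and 2. None of the 3 held a GATA motif, but they are too few for this count to say anything about the cluster.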
